A study of Mus musculus with 17 samples.

Results

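Histone-modifying enzymes, readers of histone marks and ATP-dependent chromatin remodelers were followed in myeloid cells sorted from BALB/c female mice. The members were the gene symbols of 12 role groups, taken by name: the lysine methyltransferases (Kmt and Setd), lysine demethylases (Kdm), lysine acetyltransferases (Kat and Ep300), zinc-dependent deacetylases (Hdac), sirtuins (Sirt), bromodomain proteins (Brd), chromobox readers (Cbx, split into Polycomb and HP1 readers), Smarc, Arid and Chd remodeler genes, and Polycomb repressive complex 2 (Ezh1, Ezh2, Eed and Suz12). Of the deposited rows, 95 of 10207 with a symbol were members. Of these, 72 had enough counts to be tested and 23 did not. Crebbp was not analysed here.

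The series holds 17 samples in 4 groups, and 11 libraries in 3 of these groups could be compared by gene. The TAM group (tumor-associated macrophages) had 3 libraries of CD11b+ Gr- F4/80+ cells, sorted from mammary tumors that grew after 100000 4T1-luc cells had been injected into a fat pad. 4T1-luc is a luciferase-carrying line of mouse mammary carcinoma cells. The BMDM_T group had 4 libraries of CD11b+ Gr+ F4/80low cells from the leg bone marrow of tumor-bearing mice, which the labels call monocytes. The BMDM_H group had 4 libraries of the same gate from healthy mice without an injection. The labels give 8 weeks as the age of the mice for TAM and BMDM_T, and 12 weeks for BMDM_H. The design text of the series calls the healthy mice age-matched, so the sources conflict on age. By the labels, tumor and age cannot be told apart wherever BMDM_H is used. The protocols give 8 weeks as the age at injection. Of these 3 groups collagenase was used for TAM alone, while marrow was flushed from bone, so tissue handling and cell source cannot be told apart between TAM and marrow. Nothing in the labels says that replicates came from separate mice, so the p-values describe sample-to-sample spread that could be technical.

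Libraries held 1748338 to 3747929 counts in TAM, 931278 to 1218977 in BMDM_T and 387940 to 1286844 in BMDM_H. Of 10 macrophage markers 9 were in the table, and all 9 were higher in TAM than in both marrow groups. Their summed level was 60350 to 74800 CPM (counts scaled to a common library total) in TAM, 2069 to 2535 in BMDM_T and 2696 to 3633 in BMDM_H. All 15 neutrophil and granulocyte precursor markers were lower in TAM, with sums of 351 to 579 CPM in TAM, 171100 to 207800 in BMDM_T and 139400 to 213800 in BMDM_H. Monocyte markers were present in all 3 groups, with sums of 1585 to 1809 CPM in TAM, 1272 to 1862 in BMDM_T and 1923 to 3492 in BMDM_H. The far higher granulocyte sums in both marrow groups went against a label of monocytes alone, and the marrow samples are called by their gate below. Every comparison of TAM with marrow therefore sets different mixtures of cells side by side. In such bulk samples, fewer cells of a type and less RNA per cell cannot be told apart.

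Chromatin enzymes add or remove small chemical groups on histone tails, readers bind these groups, and remodelers use ATP to slide or evict nucleosomes. Acetyl groups and methyl groups at some lysines mark active genes, while the methyl mark of Polycomb repressive complex 2 and the mark bound by HP1 proteins accompany silent chromatin. In myeloid cells these proteins work with lineage transcription factors as granulocytes and macrophages form, and several of them, such as the demethylase Kdm6b, are known for roles in inflammatory gene induction.

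RefSeq promoter windows for GRCm38.p6 (250 bases before to 50 bases after a transcription start) were matched by symbol to 73 of the 95 members. The windows below belong to 2 members that rose in TAM and 2 that fell, relative to BMDM_T. They were the largest named changes in each direction whose gene had a single window, and are shown so that the start regions of genes that moved in opposite directions can be set side by side. Capitals mark matches, on either strand, to the GC box bound by Sp1 (GGGCGG), the CCAAT box bound by NF-Y, the ETS core (CGGAAG), the C/EBP pattern TTGCNNAA, the E2F pattern TTTNNCGC and the AP-1 pattern TGANTCA.
Kat2a: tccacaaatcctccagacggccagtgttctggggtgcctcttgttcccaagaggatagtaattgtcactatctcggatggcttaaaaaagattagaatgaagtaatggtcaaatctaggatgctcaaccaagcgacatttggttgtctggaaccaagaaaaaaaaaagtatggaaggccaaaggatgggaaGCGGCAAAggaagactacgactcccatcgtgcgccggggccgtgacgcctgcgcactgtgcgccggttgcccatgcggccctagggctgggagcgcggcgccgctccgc
Sirt2: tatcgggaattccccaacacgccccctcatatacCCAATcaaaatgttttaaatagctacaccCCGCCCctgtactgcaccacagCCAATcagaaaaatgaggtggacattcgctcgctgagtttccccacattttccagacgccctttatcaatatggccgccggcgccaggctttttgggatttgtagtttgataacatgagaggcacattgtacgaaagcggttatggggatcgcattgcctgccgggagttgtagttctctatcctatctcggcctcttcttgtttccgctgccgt
Brd3: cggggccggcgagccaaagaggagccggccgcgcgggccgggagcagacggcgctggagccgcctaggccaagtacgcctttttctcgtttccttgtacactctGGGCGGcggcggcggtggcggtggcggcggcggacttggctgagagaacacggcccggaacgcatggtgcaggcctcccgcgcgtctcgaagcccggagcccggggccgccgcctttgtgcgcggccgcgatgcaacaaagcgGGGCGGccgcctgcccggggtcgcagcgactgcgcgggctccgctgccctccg
Kdm5b: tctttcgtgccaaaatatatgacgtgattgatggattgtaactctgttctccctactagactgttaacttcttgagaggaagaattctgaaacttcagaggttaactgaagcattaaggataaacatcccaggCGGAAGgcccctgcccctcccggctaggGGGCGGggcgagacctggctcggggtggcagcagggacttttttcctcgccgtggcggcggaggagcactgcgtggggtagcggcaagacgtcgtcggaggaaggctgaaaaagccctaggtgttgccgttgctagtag

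The Kat2a window lies on the minus strand at chr11:100712418-100712717, the Sirt2 window on the plus strand at chr7:28766502-28766801, the Brd3 window on the minus strand at chr2:27475349-27475648 and the Kdm5b window on the plus strand at chr1:134559928-134560227. The Brd3 window lies inside the annotated gene (chr2:27445579-27507662 in GENCODE), at an internal start. The Kat2a window held 1 E2F match, the Sirt2 window 1 GC box and 2 CCAAT boxes, the Brd3 window 2 GC boxes, and the Kdm5b window 1 GC box and 1 ETS core. Among all 32851 windows of this length in the RefSeq table, 35.7% held the GC box, 37.4% the CCAAT box, 16.9% the ETS core, 10.8% the C/EBP pattern, 5.17% the E2F pattern and 7.81% the AP-1 pattern. GC content was 54.3% in the Kat2a window, 50% in the Sirt2 window, 75.0% in the Brd3 window and 54.7% in the Kdm5b window, beside a median of 52.7% over all windows. A match describes letters in these windows and no more.

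Together the members took a smaller share of the counts in TAM than in marrow. Their summed level was 3401 ± 229 CPM in TAM (SD, n = 3), 5123 ± 112 CPM in BMDM_T and 5091 ± 341 CPM in BMDM_H (SD, n = 4 each). As a share of all counts this was 0.325% to 0.370% in TAM, 0.468% to 0.497% in BMDM_T and 0.458% to 0.558% in BMDM_H. Abundant members weigh most in such a sum, among them Arid3a (mean 348 CPM in BMDM_T, 40.4 in TAM) and Setd8 (363 and 99.2 CPM). Counted by gene, log2 fold changes against BMDM_T were negative for 58 of the 72 tested members and positive for 14. The first principal component of the tested members' log2 CPM held 61.5% of their variance. On it the TAM libraries lay at -6.15 to -5.90, the BMDM_T libraries at 1.69 to 2.52 and the BMDM_H libraries at 1.96 to 3.43, so TAM stood apart and the marrow groups overlapped. The second component held 9.88%. Over all genes tested, 58.9% were called between TAM and BMDM_T and 4.82% between the marrow groups. Whether the members split the libraries differently from other genes was not tested.

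**Figure D1:**
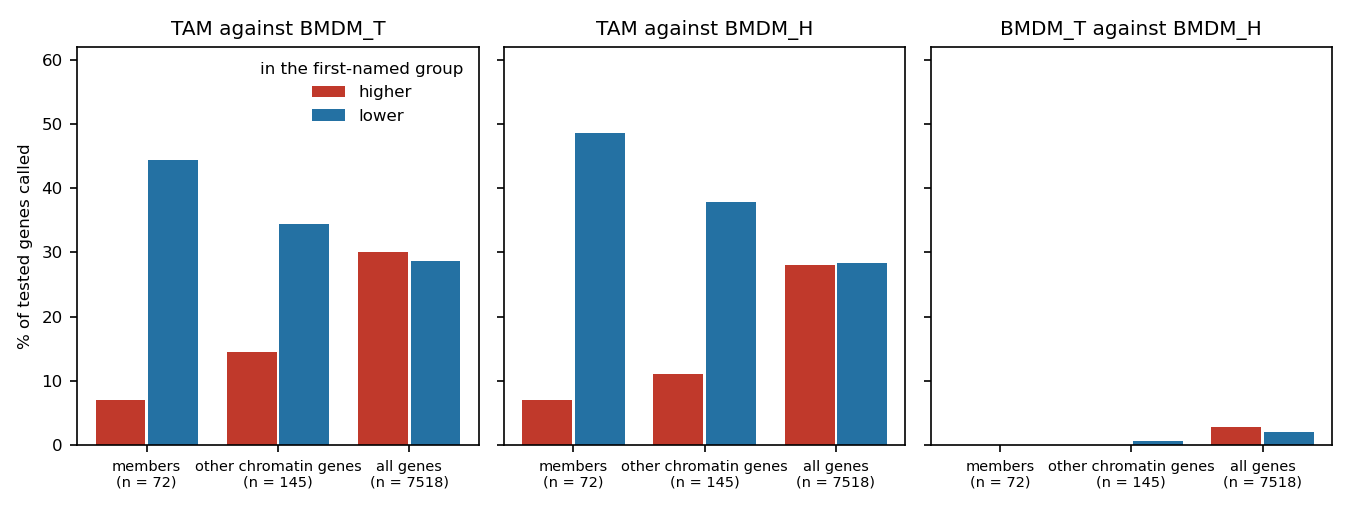
Share of genes called higher or lower (adjusted p under 0.05), in percent, for the 72 tested members, 145 other chromatin genes and all 7518 tested genes, in each of the 3 comparisons. In TAM against BMDM_T 44.4% of the members were lower and 6.94% were higher, beside 28.7% and 30.1% of all genes.

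Relative to BMDM_T, more chromatin genes fell than rose in TAM in 10 of the 12 role groups. These groups were small and unequal, from 1 tested HP1 reader to 12 tested lysine methyltransferases. Several leaned on few calls. Scaling by total counts ended the calls of Cbx5, Cbx7, Chd8, Smarca4 and Smarcc2 and called Cbx6 and Smarce1 higher. The count of 10 groups therefore depends on the scaling. By edgeR's quasi-likelihood test with Benjamini-Hochberg adjusted p-values under 0.05, 32 of the 72 tested members fell, 5 rose and 35 were not called. Over all 7518 genes tested, 58.9% were called, with 28.7% lower and 30.1% higher, against 44.4% lower and 6.94% higher among the members. The members' median log2 fold change was -0.50, while that of all genes tested was 0.03. The libraries of TAM and BMDM_T did not overlap for 37 members, with TAM below in 32 and above in 5. Over all genes TAM lay below in 27.7% and above in 30.4%.

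**Figure D2:**
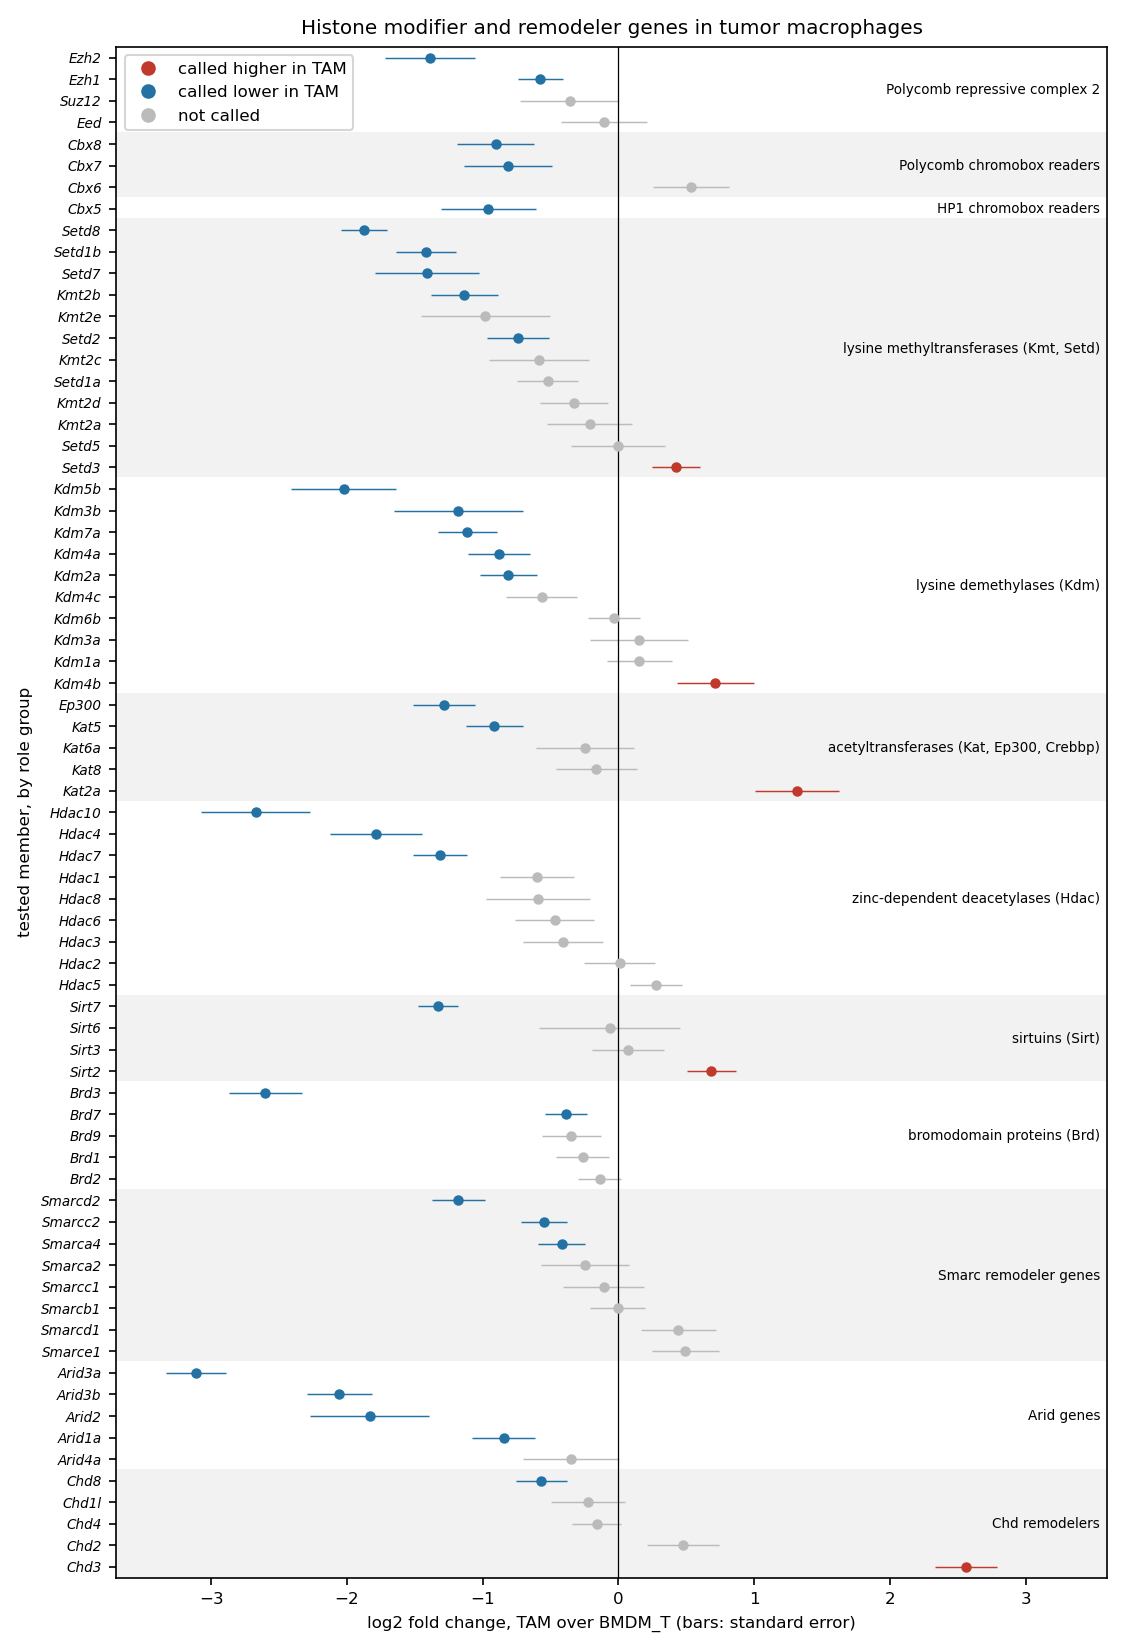
Log2 fold change of the tested members in TAM relative to BMDM_T, all but 1 drawn, 1 row per gene, grouped by role, with bars for 1 standard error. The points run from Arid3a at -3.11 to Chd3 at 2.56, and most called members lie left of 0.

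The remodeler Chd3, an ATPase of the NuRD complex that couples remodeling to deacetylation, rose most among the members. It had 76.1, 95.5 and 91.3 CPM in TAM, against 12.9, 20.2, 12.7 and 12.6 CPM in BMDM_T. Every TAM library lay above every BMDM_T library, and replicate 2 of BMDM_T stood above its other 3. The log2 fold change was 2.56 ± 0.23 (SE; edgeR adjusted p = 7.1e-09). Its gene lies at chr11:69343273-69369406 on the minus strand (GRCm38). The paralog Chd4, also a NuRD ATPase, was not called, with means of 306 ± 54.4 CPM in TAM (SD, n = 3) and 341 ± 55.4 CPM in BMDM_T (SD, n = 4). Chd8, a remodeler that binds beta-catenin, fell by 0.57 on the log2 scale, a fold of 1.48. The call was lost when libraries were scaled by total counts, thinned to the smallest total or tested against a fold of 1.5 (adjusted p up to 0.535). That last fold lies above the estimate itself, so its loss there says little about the stability of the call. Of the 5 tested Chd genes 1 rose (20%, beside 30.1% of all genes), 1 fell (20%, beside 28.7%) and 3 were not called.

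Acetyltransferases moved in both directions. Kat2a, the Gcn5 acetyltransferase of the SAGA coactivator, had 35.0, 36.1 and 17.3 CPM in TAM, against 15.1, 8.40, 8.08 and 14.4 CPM in BMDM_T. The TAM libraries lay above all of BMDM_T, though replicate 3 of TAM was close to the highest of them. The log2 fold change was 1.32 ± 0.31 (edgeR adjusted p = 0.00113). Ep300, the enhancer coactivator p300, had 16.7, 14.9 and 20.9 CPM in TAM, against 43.1, 46.2, 39.3 and 45.1 CPM in BMDM_T. These groups did not overlap either, and Ep300 fell by 1.29 ± 0.23 on the log2 scale (edgeR adjusted p = 7.89e-05). Kat5, the catalytic subunit of the Tip60 complex, fell by 0.91. Kat5 overlaps Rnaseh2c on the opposite strand, and that neighbour was lower in TAM by a log2 fold change of -2.11. The strand setting of the counting is not given in the sources used here, so reads of such overlapping pairs may be shared. Of the 5 tested acetyltransferases 1 rose (20%, beside 30.1% of all genes) and 2 fell (40%, beside 28.7%). Kat6a and Kat8 were not called.

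Among deacetylases the class IIa enzymes act largely as scaffolds for corepressors. Of the 3 tested, 2 fell, beside 28.7% of all genes, which is too few genes for a statement on the class. Hdac4 had 15, 8.49 and 6.46 CPM in TAM, against 32.3, 17.7, 43.9 and 39.7 CPM in BMDM_T, a log2 fold change of -1.78 ± 0.34 (edgeR adjusted p = 0.00013). Hdac7 fell by 1.32, with 28.6 ± 4.89 CPM in TAM (SD, n = 3) and 71.9 ± 10.1 CPM in BMDM_T (SD, n = 4). Hdac5 was not called, at 128 ± 24.3 CPM in TAM (SD, n = 3) and 106 ± 25.4 CPM in BMDM_T (SD, n = 4), and the fits did not test Hdac5 against Hdac4 or Hdac7. Hdac10, which removes acetyl groups from polyamines, had 5.00, 3.71 and 2.59 CPM in TAM, against 20.5, 21.9, 19.6 and 29.8 CPM in BMDM_T. The groups were well apart, with a log2 fold change of -2.67 ± 0.40 (edgeR adjusted p = 7.93e-06). Hdac1, Hdac2 and Hdac3, the class I enzymes of the NuRD, Sin3 and NCoR corepressors, were not called, nor were Hdac6 and Hdac8. In all, 3 of 9 tested Hdac genes fell (33.3%, near the 28.7% of all genes) and none rose in this edgeR fit.

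The NAD-dependent sirtuins had 1 rise and 1 fall among 4 tested genes (25% each, beside 30.1% and 28.7% of all genes). Sirt2, mainly a cytosolic deacetylase, had 100.01, 130.5 and 119 CPM in TAM, against 85.1, 77.3, 70.4 and 57.7 CPM in BMDM_T. It rose by 0.69 ± 0.18 on the log2 scale (edgeR adjusted p = 0.00272), as did its overlapping neighbour Nfkbib on the opposite strand, with a log2 fold change of 0.79. Sirt7, a nucleolar sirtuin, had 146, 150.1 and 139 CPM in TAM, against 347, 365, 391 and 357 CPM in BMDM_T. Values within each group were close, and the log2 fold change was -1.33 ± 0.15 (edgeR adjusted p = 1.76e-07). Sirt7 overlaps Mafg on the same strand, which was lower in TAM by a log2 fold change of -1.02. Sirt3 and Sirt6 were not called.

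Among lysine methyltransferases 5 of 12 tested genes fell (41.7%, beside 28.7% of all genes) and 1 rose (8.33%, beside 30.1%). Setd8 (now Kmt5a), which adds a single methyl group to histone H4 and acts in mitotic chromosome compaction, had 108, 103 and 85.8 CPM in TAM. In BMDM_T it had 355, 324, 396 and 376 CPM. The lowest BMDM_T library was well above the highest TAM library, and the log2 fold change was -1.88 ± 0.17 (edgeR adjusted p = 1.05e-08). Setd1b and Kmt2b, catalytic subunits of COMPASS-type complexes that methylate histone H3 at active promoters and enhancers, fell by 1.42 and 1.13. Setd2, which methylates histone H3 along transcribed gene bodies, fell by 0.74. Setd7, an enzyme for histone H3 and many other proteins, had 2.22, 4.77 and 6.20 CPM in TAM, against 8.61, 16.0, 12.7 and 12.6 CPM in BMDM_T. Its log2 fold change was -1.41 ± 0.38 (edgeR adjusted p = 0.0034). Setd3, known as an actin histidine methyltransferase, had 113, 121 and 127 CPM in TAM, against 75.4, 108, 98.1 and 77.6 CPM in BMDM_T. Setd3 rose by 0.42 ± 0.17 (edgeR adjusted p = 0.0433), and this call was lost in 14 of 21 alternative processing settings. Among these were leaving out any TAM library, replicate 1, 3 or 4 of BMDM_T, or replicate 2, 3 or 4 of BMDM_H, with edgeR adjusted p of 0.0535 to 0.138. Kmt2a, Kmt2c, Kmt2d, Kmt2e, Setd1a and Setd5 were not called. Setd1a (log2 fold change -0.52; edgeR adjusted p = 0.0514) was called lower without replicate 1 or 2 of BMDM_T, without replicate 4 of BMDM_H and with no count filter. Kmt2e (log2 fold change -0.98; edgeR adjusted p = 0.0783) was called without replicate 3 of TAM or replicate 1 of BMDM_T.

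**Figure D3:**
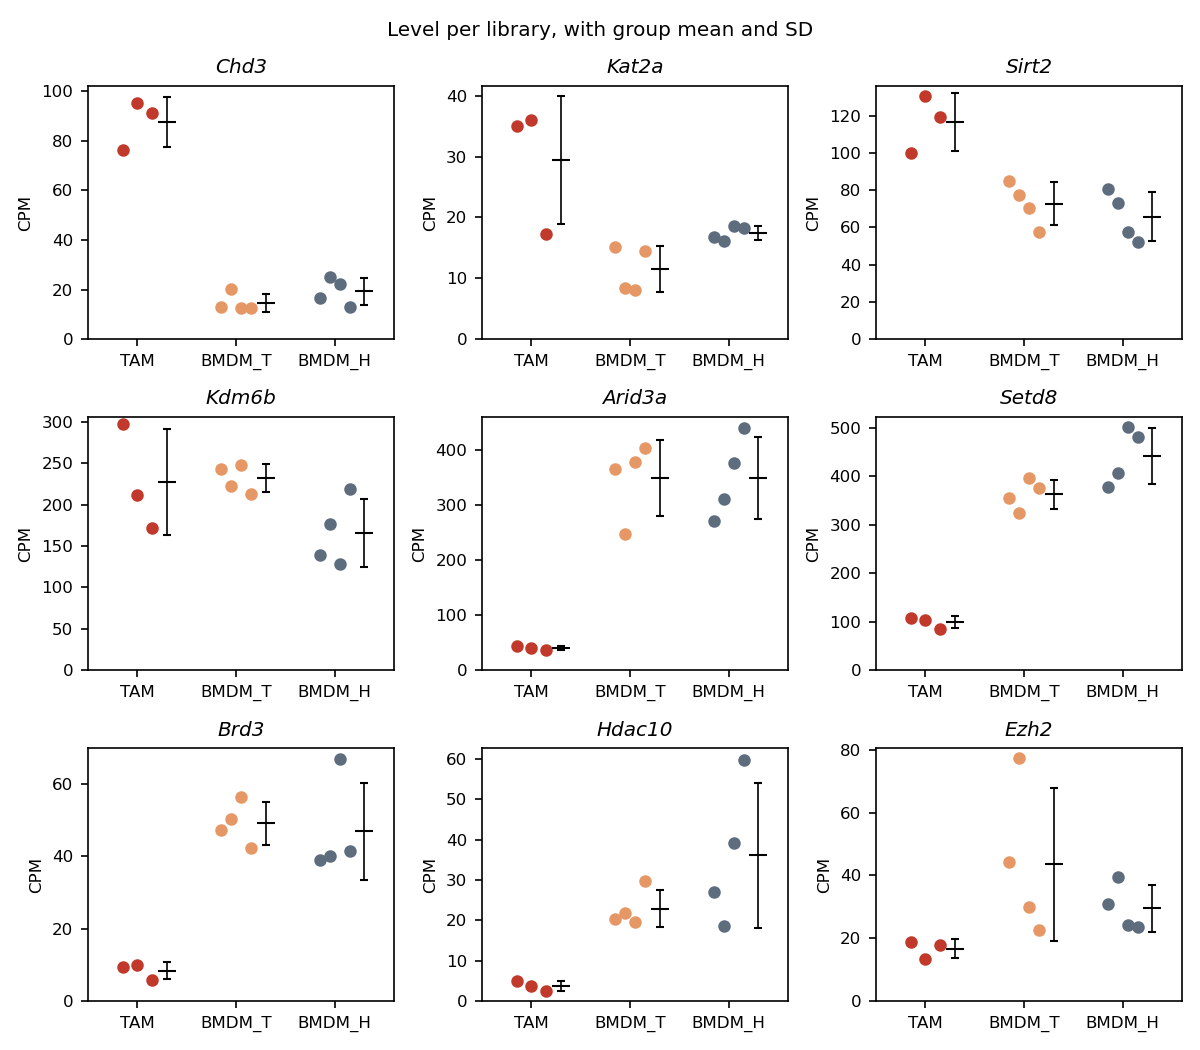
CPM of named members in each library of TAM, BMDM_T and BMDM_H, on linear axes that start at 0, with the group mean and 1 SD beside the points. Chd3 lies at 76.1 to 95.5 CPM in TAM and at 12.6 to 24.9 CPM in the marrow libraries, while Arid3a lies at 37.0 to 43.3 CPM in TAM and at 247 to 439.8 CPM in the marrow libraries.

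Among demethylases 5 of 10 tested genes fell (50%, beside 28.7% of all genes) and 1 rose (10%, beside 30.1%). Kdm5b, which removes methyl groups from histone H3 at active promoters, had 2.22, 2.12 and 3.10 CPM in TAM, against 10.8, 8.40, 13.9 and 10.8 CPM in BMDM_T. These levels rest on 20 counts in TAM and 44 in BMDM_T. The groups did not overlap, and the log2 fold change was -2.02 ± 0.39 (edgeR adjusted p = 0.000135). Kdm7a, a plant homeodomain demethylase, fell by 1.11, Kdm3b by 1.18, Kdm4a by 0.88 and Kdm2a by 0.81. The Kdm3b call was lost without replicate 1 or 3 of TAM, or replicate 1 or 4 of BMDM_T (edgeR adjusted p of 0.059 to 0.208). Kdm4b, which acts on repressive methyl marks of histone H3 like Kdm4a, had 30.6, 29.2 and 22.5 CPM in TAM, against 16.1, 19.3, 12.7 and 17.1 CPM in BMDM_T. It rose by 0.71 ± 0.28 (edgeR adjusted p = 0.0357), a call lost in 9 of 20 alternative settings. Among these were leaving out replicate 1 or 2 of TAM, or replicate 1, 3 or 4 of BMDM_T (edgeR adjusted p of 0.063 to 0.105). Kdm6b, which removes the Polycomb methyl mark, had 297, 212 and 172 CPM in TAM, against 243, 223, 248 and 213 CPM in BMDM_T. These values overlapped, and the log2 fold change was -0.03 (95% interval -0.44 to 0.37; edgeR adjusted p = 0.894). Kdm1a, Kdm3a and Kdm4c were not called. Kdm1a overlaps Luzp1 on the opposite strand, which was higher in TAM by a log2 fold change of 3.15.

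In Polycomb repressive complex 2 the catalytic subunits Ezh2 and Ezh1 fell, while Eed and Suz12 were not called. The difference between these subunits was not tested. Ezh2, the catalytic subunit of dividing cells, had 18.9, 13.3 and 17.8 CPM in TAM, against 44.1, 77.3, 30.0 and 22.6 CPM in BMDM_T. BMDM_T varied more than 3-fold among its libraries, and all of them lay above TAM, with a log2 fold change of -1.39 ± 0.33 (edgeR adjusted p = 0.00115). Ezh1, the paralog found in resting cells, had 46.7, 52.0 and 54.3 CPM in TAM, against 80.8, 73.1, 80.8 and 71.3 CPM in BMDM_T, and fell by 0.58 ± 0.17 (edgeR adjusted p = 0.00559). Eed and Suz12, the scaffold subunits, had log2 fold changes of -0.11 (95% interval -0.77 to 0.56) and -0.36 (95% interval -1.12 to 0.39). Eed overlaps E230029C05Rik on the opposite strand, which was higher in TAM by a log2 fold change of 3.35, so the Eed value may include reads of that gene. Of the Polycomb readers of the Cbx family, Cbx7 and Cbx8 fell by 0.81 and 0.90, and Cbx6 was not called, at 28.4 ± 4.42 CPM in TAM (SD, n = 3) and 19.3 ± 7.92 CPM in BMDM_T (SD, n = 4). The HP1 protein Cbx5 fell by 0.96 ± 0.35 (edgeR adjusted p = 0.0226), a call lost in 6 of 20 alternative settings, among them without replicate 1 or 3 of TAM or replicate 4 of BMDM_T (edgeR adjusted p of 0.0575 to 0.108). The Cbx7 call was lost without replicate 1 or 3 of TAM, or replicate 1, 2 or 3 of BMDM_T (edgeR adjusted p of 0.0548 to 0.149). Cbx6 was called higher without replicate 4 of BMDM_T (edgeR adjusted p = 0.0162). Cbx7 overlaps Apobec3 on the opposite strand, which had a log2 fold change of 0.00.

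Of the 6 tested bromodomain genes 3 fell (50%, beside 28.7% of all genes) and none rose in this edgeR fit. Brd3, a BET protein that binds acetylated histones, had 9.45, 10.1 and 5.69 CPM in TAM, against 47.4, 50.4, 56.6 and 42.4 CPM in BMDM_T. TAM was far below every BMDM_T library, with a log2 fold change of -2.601 ± 0.27 (edgeR adjusted p = 6.88e-08). Brd7, a subunit of a SWI/SNF complex, fell by 0.39. The Brd7 call was lost without replicate 1 or 2 of TAM or of BMDM_T (edgeR adjusted p of 0.0633 to 0.112). Brd2, a BET paralog of Brd3, was not called, with 193 ± 29.5 CPM in TAM (SD, n = 3) and 212 ± 9.69 CPM in BMDM_T (SD, n = 4). Brd2 overlaps H2-DMa on the opposite strand, which was higher in TAM by a log2 fold change of 3.32.

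SWI/SNF remodelers combine an ATPase with Smarc and Arid subunits. Smarcd2, a subunit known to be needed for granulocyte formation, had 199, 206 and 147 CPM in TAM, against 383, 344, 427 and 509.7 CPM in BMDM_T. It fell by 1.18 ± 0.20 on the log2 scale (edgeR adjusted p = 3.01e-05), with no overlap between groups. The core subunit Smarcc2 fell by 0.55, a call lost in the same 3 settings as that of Chd8 (adjusted p up to 0.515). Smarca4, the Brg1 ATPase, fell by 0.42 ± 0.17 (edgeR adjusted p = 0.0459) with overlapping libraries, a call lost in 10 of 21 alternative settings, among them without replicate 2 or 3 of TAM or replicate 1 or 2 of BMDM_T (edgeR adjusted p of 0.0763 to 0.141). Smarca2, Smarcb1, Smarcc1, Smarcd1 and Smarce1 were not called.

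The Arid genes, which encode AT-rich interaction domain proteins, had 4 falls and no rise in this edgeR fit among 5 tested genes. That is 80% lower, beside 28.7% of all genes. Arid3a, a DNA-binding protein first known from B cells and encoded at chr10:79927043-79955018 on the plus strand (GRCm38), had 43.3, 40.8 and 37.0 CPM in TAM. In BMDM_T it had 366, 247, 378 and 403 CPM. The log2 fold change of -3.11 ± 0.22 was the lowest among the members (edgeR adjusted p = 1.88e-10). Its paralog Arid3b had 11.7, 19.1 and 16.5 CPM in TAM, against 81.8, 53.8, 58.9 and 71.3 CPM in BMDM_T, and fell by 2.06 ± 0.24 (edgeR adjusted p = 3.4e-07). The SWI/SNF subunits Arid1a and Arid2 fell by 0.85 and 1.83, and Arid4a was not called. The Arid2 levels rest on 23 counts in TAM and 47 in BMDM_T.

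Other transcripts moved in the same comparison. Of 19 tested proliferation genes 17 were lower in TAM, with summed levels of 1070 to 1111 CPM in TAM and 2393 to 2954 CPM in BMDM_T. Of 16 tested immediate early and heat shock genes 11 were higher and 2 lower in TAM, with sums of 11120 to 11790 CPM in TAM and 4152 to 7117 CPM in BMDM_T. B lineage sums were 7.22 to 14.9 CPM in TAM and 353 to 601 CPM in BMDM_T, with Cd79a, Ms4a1 and Vpreb3 at 0 in TAM. Basophil, mast cell and eosinophil marker sums were 0.556 to 1.59 CPM in TAM and 379 to 462.9 CPM in BMDM_T. T and NK cell marker sums were 8.89 to 18.56 CPM in TAM and 250.5 to 307.6 CPM in BMDM_T. Epithelial marker sums were 63.9 to 99.7 CPM in TAM and 11.8 to 33.6 CPM in BMDM_T. Endothelial marker sums were 61.0 to 92.8 CPM in TAM and 19.6 to 36.1 CPM in BMDM_T. The part of these genes, and of the granulocyte markers above, in the chromatin gene differences was not tested. Scaling by total counts in place of TMM factors moved the median log2 fold change of all genes to 0.18 and gave 7 rises and 25 falls among the members. It ended the calls of Brd7, Cbx5, Cbx7, Chd8, Kdm3b, Smarca4 and Smarcc2, and it called Cbx6 and Smarce1 higher. Leaving out replicate 1 of BMDM_T also called Hdac1 and Brd9, leaving out its replicate 3 called Kdm4c, and limma-voom called Hdac1.

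Relative to BMDM_H, 35 of the 72 tested members fell in TAM, 5 rose and 32 were not called. Over all genes 56.3% were called, with 28.3% lower and 28% higher, against 48.6% lower and 6.94% higher among the members. Their median log2 fold change was -0.60, while that of all genes was 0.02. Libraries did not overlap for 33 members, with TAM below in 29 and above in 4, beside 26.4% below and 27.5% above over all genes. The same TAM libraries serve both comparisons, so they are not independent, and the values are given side by side without a test between them.

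The rises against BMDM_H were Chd3, Kdm4b, Sirt2, Kat2a and Hdac5. Chd3 had 16.7, 24.9, 22.3 and 13.0 CPM in BMDM_H, below all the TAM values given above, and its log2 fold change was 2.13 ± 0.23 (edgeR adjusted p = 1.27e-07). Kdm4b had 16.7, 12.1, 11.2 and 2.602 CPM in BMDM_H, likewise below TAM, with a log2 fold change of 1.16 ± 0.31 (edgeR adjusted p = 0.00333). Sirt2 rose by 0.77 ± 0.19, with 117 ± 15.4 CPM in TAM (SD, n = 3) and 65.8 ± 13.2 CPM in BMDM_H (SD, n = 4; edgeR adjusted p = 0.00141). Kat2a had 16.7, 16.1, 18.6 and 18.2 CPM in BMDM_H, which overlapped replicate 3 of TAM. Its rise of 0.75 ± 0.31 (edgeR adjusted p = 0.0442) was lost in 14 of 20 alternative settings, among them leaving out any single BMDM_H library (edgeR adjusted p of 0.0504 to 0.177 over 8 left-out libraries of all groups). Hdac5 rose by 0.50 ± 0.20 (edgeR adjusted p = 0.039), also with overlapping libraries, and this call was lost in 8 of 21 alternative settings, among them without replicate 1 or 2 of TAM or replicate 1, 3 or 4 of BMDM_H (edgeR adjusted p of 0.0708 to 0.166). Setd3 was not called against BMDM_H (log2 fold change 0.38; edgeR adjusted p = 0.0779).

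The falls against BMDM_H were again led by Hdac10, Arid3a and Brd3. Hdac10 had 27.1, 18.5, 39.1 and 59.9 CPM in BMDM_H, a spread of more than 3-fold within that group, and fell by 3.17 ± 0.40 in TAM (edgeR adjusted p = 1.04e-06). Arid3a had 271, 310.5, 376 and 439.8 CPM in BMDM_H, and fell by 3.10 ± 0.22 (edgeR adjusted p = 2.67e-10). Brd3 had 39.0, 40.2, 66.9 and 41.6 CPM in BMDM_H, with replicate 3 above the other 3 libraries, and fell by 2.50 ± 0.28 (edgeR adjusted p = 2.12e-07). Setd8 fell by 2.15, Arid3b by 2.10, Kdm5b by 2.02, Setd1b by 1.81, Setd7 by 1.72, Hdac4 by 1.60, Sirt7 by 1.33 and Ep300 by 1.17. The libraries of TAM and BMDM_H did not overlap for any of these 8 genes. For all of them but Ep300 this was a condition of being named among the largest falls.

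By role, 7 of 12 tested methyltransferases fell against BMDM_H, as did 6 of 10 demethylases, 4 of 6 bromodomain genes and 4 of 5 Arid genes. So did 3 of 9 Hdac genes, 3 of 8 Smarc genes, 2 of 5 acetyltransferases, 2 of 5 Chd genes, 2 of 3 Polycomb Cbx genes and 1 of 4 sirtuins. The 1 tested HP1 reader, Cbx5, was not called against BMDM_H (log2 fold change -0.70; edgeR adjusted p = 0.112). Among role groups with a fall, shares ran from 25% to 80%, beside 28.3% of all genes. The lowest were the sirtuins and Polycomb repressive complex 2, and the highest the Arid genes. For Hdac genes the share was 33.3%, near that of all genes. Of the 40 members called in this comparison, 12 lost the call in at least 1 of the 11 fits that left out 1 library. In Polycomb repressive complex 2 only Ezh2 was called in this edgeR fit, with 18.9, 13.3 and 17.8 CPM in TAM, against 31.0, 39.4, 24.2 and 23.4 CPM in BMDM_H. Its log2 fold change was -0.88 ± 0.35 (edgeR adjusted p = 0.0358), and the call was lost in 8 of 21 alternative settings, among them without replicate 2 or 3 of TAM or replicate 1 or 2 of BMDM_H (edgeR adjusted p of 0.0537 to 0.135). Ezh1 and Suz12 had log2 fold changes of -0.35 and -0.79 with edgeR adjusted p of 0.0881 and 0.07, and Suz12 crossed the threshold without replicate 1 of BMDM_T or of BMDM_H (adjusted p of 0.0389 and 0.0312). Kdm6b had 138, 177, 128 and 219 CPM in BMDM_H, and a log2 fold change of 0.47 ± 0.20 in TAM (edgeR adjusted p = 0.0516). That value crossed the threshold in 5 alternative settings, among them leaving out replicate 3 of TAM (adjusted p = 0.0138) and replicate 4 of BMDM_H (adjusted p = 0.01835).

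Between the marrow groups, BMDM_T against BMDM_H, none of the 72 tested members was called in either direction by edgeR. Over all genes 4.82% were called, with 212 (2.82%) higher and 150 (2%) lower, which became 155 higher and 218 lower when libraries were scaled by total counts. DESeq2 and limma-voom also called 0 members. At an unadjusted p under 0.05 there were 5 of 72 members and 1324 of 7518 genes in edgeR. DESeq2 had 4 members and 1191 genes at that level, and limma-voom 6 and 1309. The members' median log2 fold change was -0.04 and that of all genes -0.01. Log2 fold changes ran from -0.73 for Chd1l to 0.54 for Kdm7a.

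Smarca4 had the smallest adjusted p. It had 220, 244, 152 and 190.3 CPM in the BMDM_T libraries, against 119, 166, 147 and 133 CPM in BMDM_H, and its log2 fold change was 0.52 ± 0.17 (edgeR adjusted p = 0.0896). Replicate 3 of BMDM_T lay among the BMDM_H values, and without it the adjusted p was 0.043. Kdm6b had a log2 fold change of 0.50 (edgeR adjusted p = 0.152) and Kdm7a of 0.54 (edgeR adjusted p = 0.154). Chd1l, a remodeler recruited by poly-ADP-ribose, averaged 15.5 ± 2.41 CPM in BMDM_T, against 26.6 ± 5.22 CPM in BMDM_H (SD, n = 4 each; edgeR adjusted p = 0.131), with every BMDM_T library below every BMDM_H library. Libraries did not overlap for 3 members, Chd1l, Setd1b and Kat2a, all with BMDM_T below, beside 5.2% of all genes below and 5.99% above. These 3 were picked out after their values had been seen.

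**Figure D4:**
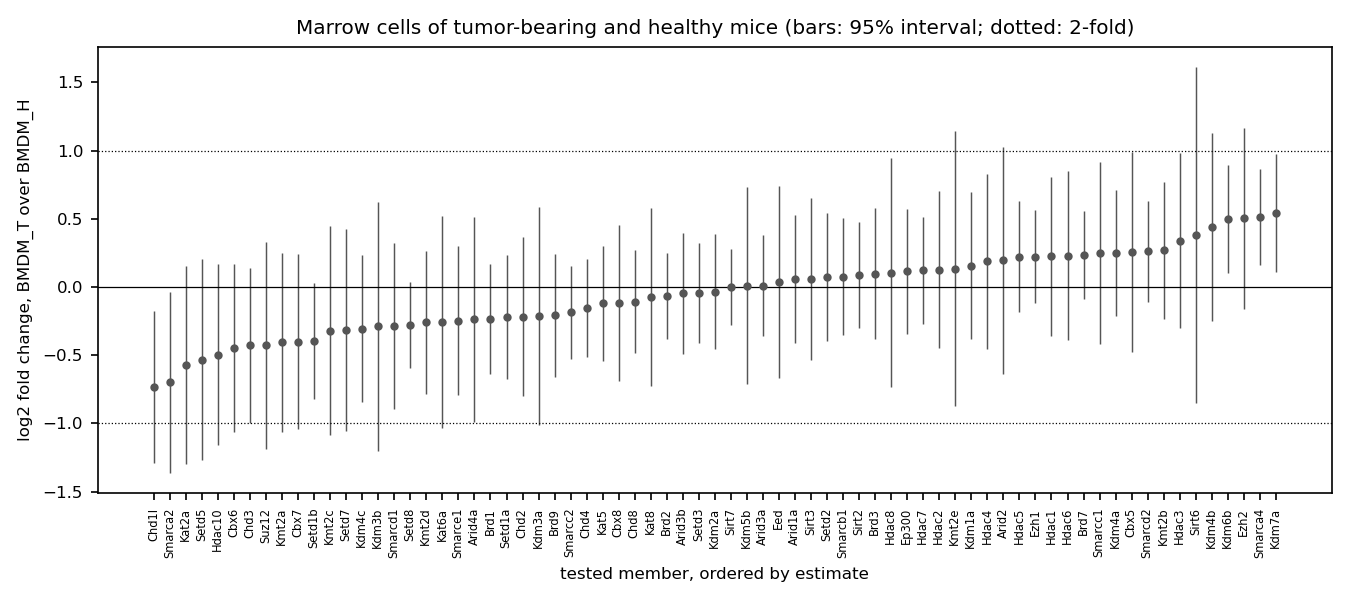
Log2 fold change of the tested members in BMDM_T relative to BMDM_H, all but 1 drawn, each with its 95% interval, and dotted lines at a 2-fold change. The intervals of 53 of the 72 members lie within 2-fold, and those of 19 reach beyond it.

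How far a marrow difference could be bounded depended on the gene. The 95% interval of the log2 fold change lay within 2-fold in either direction for 53 of the 72 members and reached past it for 19. For Sirt7 the interval was -0.28 to 0.28, for Arid3a -0.36 to 0.38, for Setd8 -0.59 to 0.03 and for Chd3 -0.998 to 0.14. For Ezh2 it was -0.16 to 1.17, with 22.6 to 77.3 CPM in BMDM_T and 23.4 to 39.4 CPM in BMDM_H. Standard errors had a median of 0.264 on the log2 scale. Proliferation genes also had no call among 19 in this edgeR fit. Markers of other cells did differ between the marrow groups. All 6 erythroid markers were lower in BMDM_T, with sums of 6.31 to 21.9 CPM in BMDM_T and 54.9 to 271 CPM in BMDM_H. Lower in BMDM_T were also 4 of 6 monocyte markers, with sums of 1272 to 1862 CPM in BMDM_T and 1923 to 3492 CPM in BMDM_H, and 4 of 9 macrophage markers. Higher in BMDM_T were 5 of 15 neutrophil and granulocyte precursor markers and 2 of 4 tested B lineage markers. B lineage sums were 353 to 601 CPM in BMDM_T and 147 to 378 CPM in BMDM_H. The part of these markers in the members' values was not tested.

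The 23 members below the count filter included Arid4b, Arid5a, Arid5b, Brd8, Cbx1, Cbx2, Chd6, Chd7, Hdac11, Kat2b, Kat6b, Kdm1b, Kdm2b, Kdm5c, Kdm6a, Setd4, Setd6, Sirt1, Sirt4, Sirt5, Smarca5 and Smarcd3. Their counts summed over the 11 libraries ran from 16 for Kdm1b to 105 for Chd6. At this depth differences in these genes were largely not detectable. Setd4 had 62 counts in TAM, 15 in BMDM_T and 12 in BMDM_H. In the fit without BMDM_H replicates 3 and 4 it was tested and called higher in TAM in both comparisons. Without the filter, Sirt5, a mitochondrial desuccinylase with 52 counts in TAM, 9 in BMDM_T and 6 in BMDM_H, was called higher in TAM in both comparisons. Cbx2, with 7, 24 and 15 counts in the same groups, was called lower in both. Sirt1 was called against BMDM_T alone, and Brd8 against BMDM_H alone. The difference between these comparisons was not tested.

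Partners of the members were counted from lists of 218 other chromatin genes, of which 175 were in the table and 145 were tested. Against BMDM_T 21 of these rose in TAM (14.5%, beside 30.1% of all genes) and 50 fell (34.5%, beside 28.7%), with a median log2 fold change of -0.24. Against BMDM_H 16 rose (11%, beside 28% of all genes) and 55 fell (37.9%, beside 28.3%), with a median of -0.41. Of 22 tested acetyltransferase partners 9 fell against BMDM_T (40.9%, beside 28.7% of all genes) and none rose in that edgeR fit. Of 10 COMPASS and menin partners 4 fell (40%) and none rose. Among 20 other histone methyltransferases 8 rose (40%, beside 30.1% of all genes) and 6 fell (30%). Among 22 corepressor subunits that work with deacetylases 5 rose (22.7%) and 10 fell (45.5%). Among 20 acyl and acetyl readers and histone chaperones 2 rose (10%) and 4 fell (20%), both below the shares of all genes. The corepressor scaffold Sin3a, a partner of Hdac1 and Hdac2, had 4.82 ± 1.12 CPM in TAM (SD, n = 3) and 22.5 ± 4.49 CPM in BMDM_T (SD, n = 4; log2 fold change -2.25). Asxl1, a partner of the histone H2A deubiquitinase, had 5.56 ± 2.45 CPM in TAM (SD, n = 3) and 36.0 ± 6.63 CPM in BMDM_T (SD, n = 4; log2 fold change -2.62). Padi4, a histone deiminase known from neutrophils, had 9.89 ± 0.58 CPM in TAM (SD, n = 3) and 296 ± 105 CPM in BMDM_T (SD, n = 4; log2 fold change -4.90). On the other side Ehmt2, the G9a methyltransferase, had 197 ± 17.6 CPM in TAM (SD, n = 3) and 98.1 ± 13.7 CPM in BMDM_T (SD, n = 4; log2 fold change 1.00). Dot1l, which methylates the histone H3 core, had 89.7 ± 40.1 CPM in TAM (SD, n = 3) and 34.3 ± 6.41 CPM in BMDM_T (SD, n = 4; log2 fold change 1.37). Between the marrow groups 1 of the 145 genes was called, Padi2, at 4.46 ± 2.56 CPM in BMDM_T, against 16.8 ± 8.30 CPM in BMDM_H (SD, n = 4 each; edgeR adjusted p = 0.00771). The partners named here were chosen after their values had been seen.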

How the data were processed

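RNA was measured with 3' end libraries that carry molecular identifiers, per the labels' protocols. The deposited values are raw counts per gene, which the authors made with bcl2fastq, STAR 2.4.2a and HTSeq on mm10, per the submitters' processing notes. The strand setting is not given in the sources used here, and neither is the annotation or whether identifiers were collapsed. Of 24421 rows in the table, 10207 have a symbol. The 6 columns of batch 2 are in another row order (Spearman correlation -0.02 to 0 with batch 1 over 66 pairs, and at least 0.92 within batch 1 BMDM_H), so they were not compared by gene.

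The 11 libraries of batch 1 were fitted together in edgeR 4.0.16 (R 4.3.3; filterByExpr, TMM factors, estimateDisp, glmQLFit and glmQLFTest). Benjamini-Hochberg adjustment ran over all 7518 genes tested, and adjusted p under 0.05 was called. CPM are counts per 1000000 of the TMM-scaled library total. SE was taken from the ratio of the unshrunken log2 fold change to the root of its F statistic. Replicates differed by more than sampling noise in every pair (chi-square per degree of freedom 2.67 to 14.6). Gene totals below 3 counts per library, 0.776 to 7.81 CPM, are counting floors. Alternatives used limma 3.58.1, DESeq2 1.42.0, other scalings, filters and left-out libraries. The procedure was tested on simulated data.

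Named members were, per comparison, up to 10 rises and 10 falls among calls without overlap whose higher group averaged 10 CPM or more, plus Polycomb repressive complex 2, Ep300 and 1 member per role. For the rises and falls so chosen, the lack of overlap follows from the rule. Members and lists were chosen with earlier results of these data known. Same-numbered BMDM_T and BMDM_H libraries deviated together (r = 0.22, 0.24, 0.13 and 0.13 across genes). All 4 values exceed 0.1, the bound for treating numbers as pairs, but no label states what a number stands for. With the replicate block, edgeR again called 0 members between these groups. Values of 2 members are not reported here, though the counts include them.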

Additional observations from a re-analysis of the deposited data

Results flagged for a closer look

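In 3 of the 62 sets of 4 values examined, 1 library stood apart from the other 3 (the gap to the nearest value over the whole range was above Dixon's 95% critical value). Chance flags about 1 in 20 sets, which is near this count. Chd3 in BMDM_T replicate 2 was at 20.17 CPM, while the other BMDM_T libraries were at 12.63 to 12.92 CPM. Brd3 in BMDM_H replicate 3 was at 66.95 CPM, while the other BMDM_H libraries were at 39.0 to 41.64 CPM. Chd4 in BMDM_H replicate 4 was at 481.4 CPM, while the other BMDM_H libraries were at 339.1 to 360.8 CPM.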

How the results depend on the processing

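Over 21 other settings no called member reversed its direction. The call was kept in every setting that tested the gene for 19 of the 37 members called in TAM against BMDM_T and for 18 of the 40 called in TAM against BMDM_H. Testing against a fold of 1.5 asks a stricter question, and it is counted here and above among the settings that lost a call. For members with an estimated fold below 1.5, a loss there says little about stability. For TAM against BMDM_T, rises among the members numbered 3 in DESeq2, 3 after thinning to the smallest library and 2 when tested against a fold of 1.5. Falls numbered 20 after thinning and 18 against a fold of 1.5, and all genes called numbered 2733 after thinning and 2957 against a fold of 1.5. For TAM against BMDM_H, rises numbered 3 in limma-voom, 3 after thinning and 2 against a fold of 1.5. Falls numbered 19 after thinning and 17 against a fold of 1.5, and all genes called numbered 2728 and 2702. For BMDM_T against BMDM_H, all genes called numbered 179 without BMDM_H replicates 3 and 4, and 107 against a fold of 1.5. Thinning left 5140 genes and 48 members to test. The cause of the other changes was not tested.

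Leaving out 1 library at a time gave 3 to 5 rises, 28 to 33 falls and 4107 to 4450 genes called for TAM against BMDM_T. For TAM against BMDM_H it gave 3 to 6 rises, 28 to 36 falls and 3815 to 4297 genes called. For BMDM_T against BMDM_H it gave 0 to 1 rises (Smarca4 without BMDM_T replicate 3), 0 falls and 238 to 409 genes called, the lowest without BMDM_H replicate 2. Rises numbered 3 against BMDM_T without TAM replicates 1 or 2 or BMDM_T replicates 1 or 3, and 3 against BMDM_H without TAM replicates 1 or 2 or BMDM_H replicates 1 or 3. Over these 11 fits, 7 members lost their call in at least 1 fit in TAM against BMDM_T, and 12 did in TAM against BMDM_H. With the replicate block, TAM against BMDM_T gave 5 rises and 31 falls, TAM against BMDM_H 6 and 34, and BMDM_T against BMDM_H 0 and 0, with 468 genes called in all. Same-numbered TAM libraries deviated with marrow libraries at r of -0.053 to 0.075, under the limit of 0.1 for pairs. Thinning moved Hdac10 to log2 fold changes of -3.69 in TAM against BMDM_T and -4.003 in TAM against BMDM_H, and Brd3 to -1.91 in TAM against BMDM_H. Depth limits the members with few counts, and BMDM_H replicates 3 and 4 are the shallowest libraries.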

Other observations

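Among 145 other chromatin genes tested, Bcl11a, a zinc finger subunit of SWI/SNF complexes, had 0.26 ± 0.27 CPM in TAM (SD, n = 3), below the level of 3 counts per library, and 20.7 ± 6.45 CPM in BMDM_T (SD, n = 4). Prmt2, an arginine methyltransferase, had 13.3 ± 5.38 CPM in TAM (SD, n = 3) and 0.74 ± 0.89 CPM in BMDM_T (SD, n = 4), where it was likewise below 3 counts in each library. Both genes were called (edgeR adjusted p = 1.74e-08 for Bcl11a and 1.45e-05 for Prmt2), and no fold is given against so few counts. Members of the MIER family, which bind Hdac1 and Hdac2, had opposite calls. Mier2 had 56.8 ± 3.91 CPM in TAM (SD, n = 3) and 21.4 ± 1.00 CPM in BMDM_T (SD, n = 4; log2 fold change 1.40), while Mier3 had 4.64 ± 1.27 CPM in TAM (SD, n = 3) and 32.3 ± 14.7 CPM in BMDM_T (SD, n = 4; log2 fold change -2.77). The histone chaperone Npm1 had 255 ± 22.2 CPM in TAM (SD, n = 3) and 108 ± 48.1 CPM in BMDM_T (SD, n = 4; log2 fold change 1.23). These genes were picked after their values had been seen.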
